A study of Mus musculus with 9 samples.

Results

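The Kruppel-like factors described here were 10 genes, Klf2, Klf3, Klf4, Klf5, Klf6, Klf7, Klf9, Klf10, Klf13 and Klf15, taken by symbol from the 46517 genes of the count tables. All 10 were matched to an Ensembl gene, and all 10 were among the 14870 genes that passed the expression filter. Polyadenylated RNA was sequenced from colonies grown from dissociated mouse intestinal stem cells for 4 days in 1 of 3 matrices. The matrices were Matrigel, a basement membrane extract of a mouse tumour rich in laminin, and 2 hydrogels of polyethylene glycol (PEG), one non-degradable and one degradable. Each matrix had 3 libraries, and every group received R-spondin, noggin, EGF, CHIR99021 (a GSK3 inhibitor) and valproic acid (a histone deacetylase inhibitor). The labels give no strain, age or genotype, and they leave unsaid whether libraries sharing a matrix are from different cultures or mice. The p-values therefore measure the spread between these libraries, which may be technical.

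Kruppel-like factors are transcription factors that bind GC-rich and CACCC sequences through a run of C2H2 zinc fingers at the end of the protein. The amino-terminal parts differ between members and recruit activators or corepressors such as CtBP and Sin3. In the intestinal epithelium, Klf5 is known for its expression in dividing crypt cells, and Klf4 for its expression in cells that have left the cycle and for its role in goblet cells. Several members, among them Klf2, Klf4, Klf6 and Klf10, are known as genes that respond early to growth factors, serum, shear or TGF-beta.

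In GENCODE M21 on GRCm38, the members lie on 10 different chromosomes. On the plus strand are Klf2 (ENSMUSG00000055148) at chromosome 8, 72319033 to 72321656, Klf3 (ENSMUSG00000029178) at chromosome 5, 64803388 to 64832901 and Klf5 (ENSMUSG00000005148) at chromosome 14, 99298691 to 99315036. The same strand carries Klf6 (ENSMUSG00000000078) at chromosome 13, 5861482 to 5870394, Klf9 (ENSMUSG00000033863) at chromosome 19, 23141226 to 23168134 and Klf15 (ENSMUSG00000030087) at chromosome 6, 90462576 to 90475238. On the minus strand are Klf4 (ENSMUSG00000003032) at chromosome 4, 55527143 to 55532466, Klf7 (ENSMUSG00000025959) at chromosome 1, 64029447 to 64122282, Klf10 (ENSMUSG00000037465) at chromosome 15, 38291463 to 38300706 and Klf13 (ENSMUSG00000052040) at chromosome 7, 63886351 to 63938915.

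The libraries held between 38016227 and 47211981 reads assigned to genes. All 11 epithelial markers on the list used (Epcam, Cdh1 and Vil1 among them) were detected, with a summed level of 5824 to 7567 CPM (counts scaled to a common library total). Markers of cells in which Klf2 is also well known were near the floor. Of 10 endothelial markers, 8 stayed under 1 CPM in every library, and Cdh5 and Cldn5 had no count. Their summed level was 19.2 to 20.3 CPM in Matrigel, 20.9 to 23.6 CPM in the non-degradable gel and 21.7 to 24.4 CPM in the degradable gel, most of it from Esam. Of 12 blood cell markers, 11 stayed under 1 CPM, Ptprc, Cd4 and Hbb-bs had no count, and the summed level ran from 1.61 to 3.96 CPM. In bulk RNA, fewer cells of a type and less RNA per cell cannot be told apart.

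Against Matrigel, 5 of 10 members were higher in the non-degradable gel (Klf2, Klf4, Klf6, Klf9 and Klf10), where 9.71% of all tested genes were called higher and 16.8% were called in either direction. In the degradable gel 7 of 10 were higher, the same 5 with Klf3 and Klf5, where 7.42% of all tested genes were called higher and 12.2% in either direction. The test was edgeR's quasi-likelihood test over all genes with Benjamini-Hochberg adjustment, and an adjusted p under 0.05 counted as called. The median log2 fold change of the 10 members was 0.68 in the non-degradable gel and 0.70 in the degradable gel, beside -0.0021 and -0.016 over all tested genes. None was lower in either gel, where 7.13% and 4.79% of all tested genes were. By the libraries alone, 6 of 10 members lay wholly above Matrigel in each gel (21.8% and 15.6% of all tested genes), 1, Klf15, lay wholly below it (21.6% and 14.8%), and 3 overlapped with it (43.4% and 30.4% of all genes did not overlap). Both comparisons use the same 3 Matrigel libraries, so they are not independent of each other. With a replicate block, 6 of 10 members (Klf5 added) and 3877 of all genes, in place of 2504, were called in the non-degradable gel. The replicate numbers were taken as pairs there, though no label says that they are. For the degradable gel, 4 of 10 members were called without Matrigel library 2 or without degradable gel library 3, with Klf3, Klf5 and Klf9 lost in each case. Of all genes, 1290 and 1178 were called in these fits, in place of 1815. Without the libraries numbered 3 of both PEG gels, an alternative chosen after seeing the data, 5 members were called higher in the non-degradable gel, where 787 of all genes were. The count in the degradable gel went from 7 to 5, with Klf3 and Klf9 lost, where 778 of all genes were called higher.

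**Figure D1:**
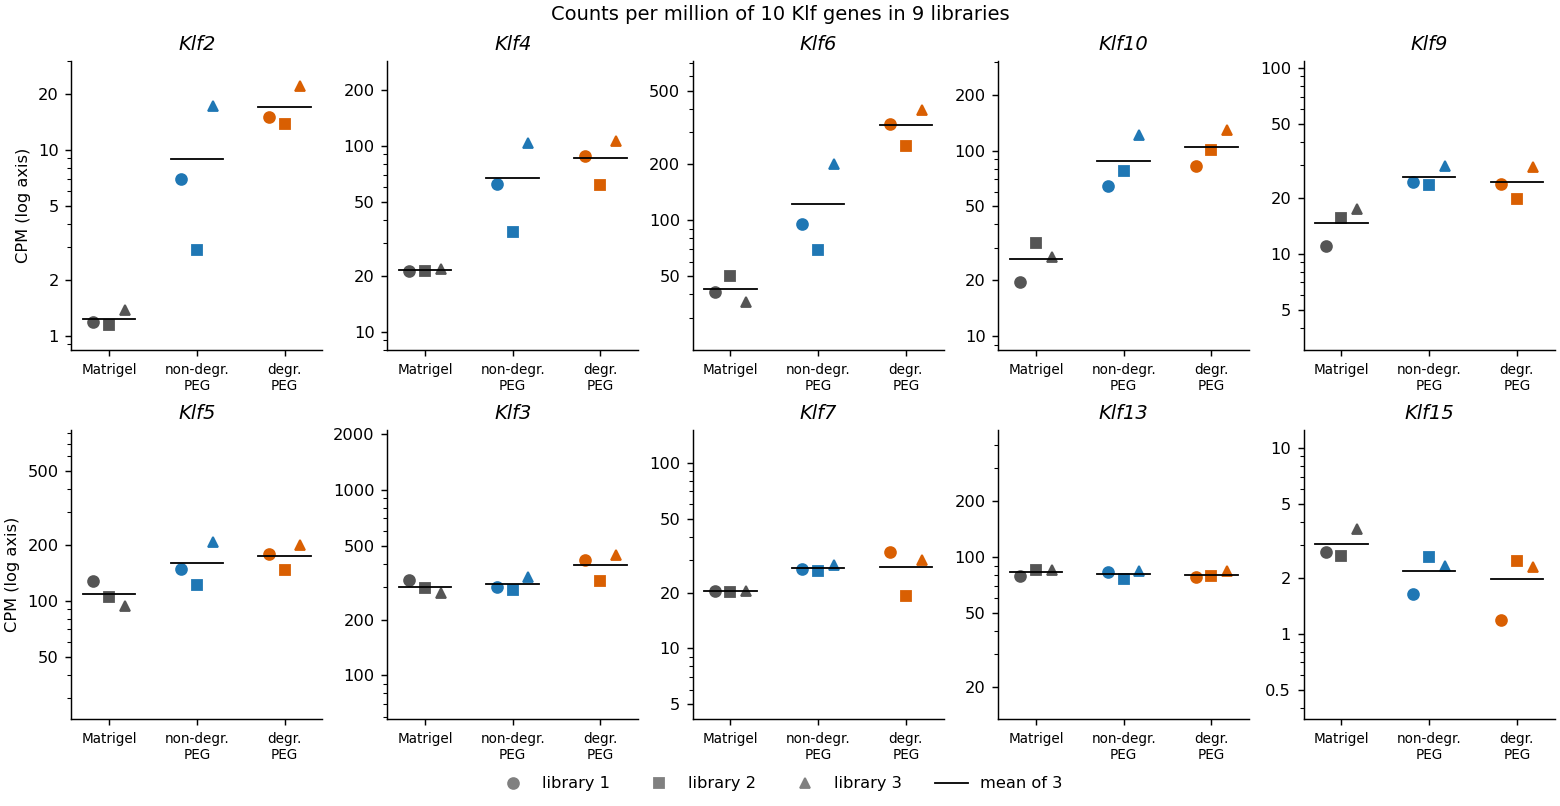
CPM of each Klf gene on a log axis, with 1 point per library, the shape giving the library number and the line the mean of 3. Every panel spans the same ratio from bottom to top. Klf2, Klf4, Klf6, Klf9 and Klf10 lie above Matrigel in every PEG library, while Klf13 stays between 76.2 and 85.6 CPM throughout.

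Klf2, a regulator of quiescence in T cells and of the response to flow in endothelium, rose most. It was barely detected in Matrigel, at 1.18, 1.14 and 1.37 CPM (46 to 62 reads). In the non-degradable gel it stood at 6.92, 2.87 and 17.1 CPM, and in the degradable gel at 15.1, 13.8 and 22.0 CPM, in the order of the library numbers. All 6 PEG libraries were above all 3 Matrigel libraries, and the non-degradable gel was the most uneven group. The log2 fold change was 2.87 ± 0.531 (SE) in the non-degradable gel (edgeR adjusted p = 0.0045) and 3.78 ± 0.536 in the degradable gel (adjusted p = 0.00115). Without library 3 of the non-degradable gel the former was 1.99 (adjusted p = 0.00508, range 2.97e-07 to 0.0207 over 15 alternatives).

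Klf4, which promotes cell cycle exit and goblet cell maturation, had nearly equal levels in the Matrigel libraries, at 21.3, 21.3 and 21.8 CPM. It reached 62.2, 34.5 and 103.7 CPM in the non-degradable gel and 88.0, 61.9 and 106.6 CPM in the degradable gel. The groups did not overlap with Matrigel, and library 2 was the lowest and library 3 the highest of each PEG gel. The log2 fold changes were 1.64 ± 0.319 (edgeR adjusted p = 0.00587) and 1.99 ± 0.321 (adjusted p = 0.00234), about a 3.12-fold and a 3.98-fold rise.

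Klf6, an early response gene of injured and growing tissue, was the member for which the PEG gels stood farthest apart. Matrigel had 41.1, 50.3 and 36.6 CPM and the non-degradable gel 95.4, 69.2 and 201.2 CPM. The degradable gel had 328.4, 250.6 and 394.2 CPM, so the 3 groups formed steps with no overlap. The rise over Matrigel was 1.52 ± 0.324 on the log2 scale in the non-degradable gel (edgeR adjusted p = 0.00965) and 2.93 ± 0.339 in the degradable gel (adjusted p = 3.58e-04). The former was 0.95 without library 3 of the non-degradable gel (adjusted p = 0.0127, range 2.65e-06 to 0.0396 over 15 alternatives).

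Klf10, first described as a TGF-beta inducible early gene, had 19.7, 31.7 and 26.7 CPM in Matrigel. It stood at 64.2, 77.2 and 121.2 CPM in the non-degradable gel and at 83.0, 100.7 and 129.4 CPM in the degradable gel. All PEG libraries were above all Matrigel libraries. Its log2 fold changes of 1.75 ± 0.246 (edgeR adjusted p = 9.01e-04) and 2.00 ± 0.248 (adjusted p = 5.30e-04) had smaller standard errors than those of Klf2, Klf4 and Klf6.

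Klf9, known as a target of glucocorticoid and thyroid hormone receptors, rose by less. It had 11.04, 15.6 and 17.5 CPM in Matrigel, 24.2, 23.4 and 29.8 CPM in the non-degradable gel and 23.7, 19.6 and 29.4 CPM in the degradable gel. The PEG libraries were all above the Matrigel libraries, and the PEG gels overlapped. The log2 fold change was 0.81 ± 0.181 (edgeR adjusted p = 0.0121) in the non-degradable and 0.72 ± 0.182 (adjusted p = 0.0253) in the degradable gel. The first call was lost without library 3 of the non-degradable gel (adjusted p = 0.0522), within a range of 1.53e-04 to 0.0522 over 15 alternatives. The second was lost without Matrigel library 1 (0.0758), Matrigel library 2 (0.0523) or degradable gel library 3 (0.0974), and without the libraries numbered 3 of both PEG gels (0.0879), within a range of 8.53e-04 to 0.0974.

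**Figure D2:**
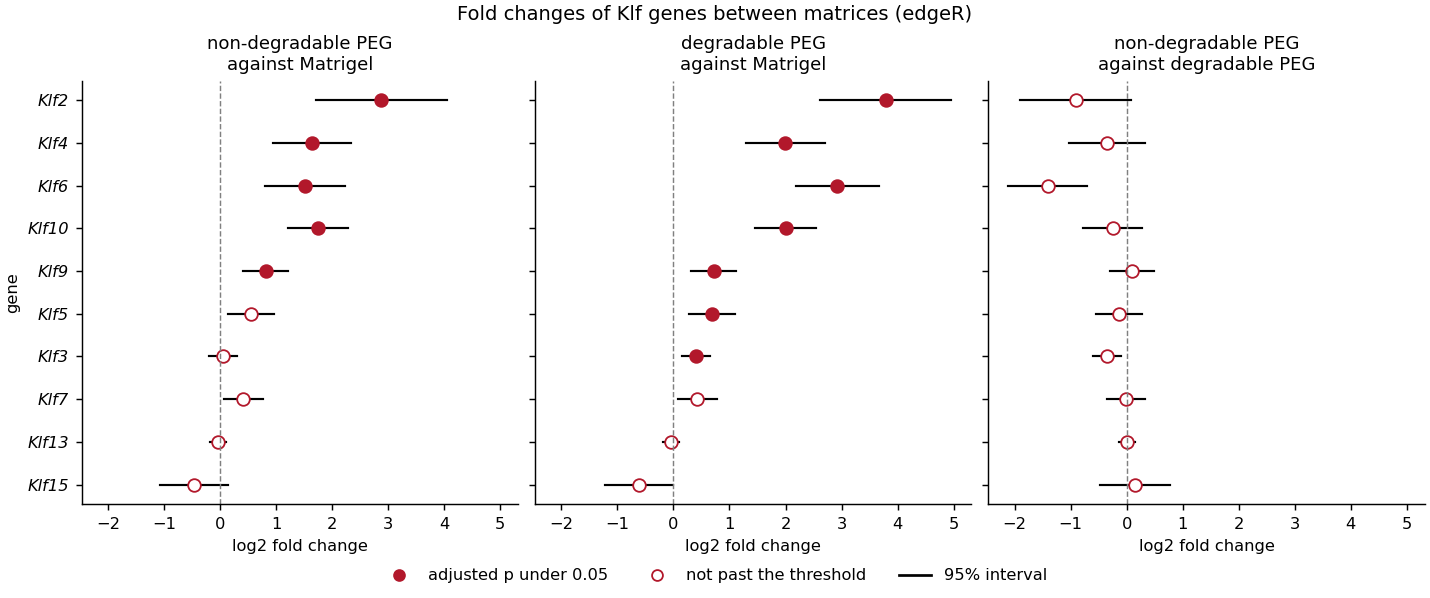
Log2 fold change of each Klf gene (x axis) in the 3 comparisons, with the 95% interval of each single gene from the edgeR fit. Filled points passed an adjusted p of 0.05, which 5, 7 and 0 of 10 genes did from left to right.

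To show the sequence next to the genes that rose, the stretches just upstream of Klf2, Klf4 and Klf6 are given beside that of Klf13, whose level did not differ detectably. They are RefSeq promoters on GRCm38.p6, cut to end before the RefSeq and GENCODE starts of each gene. The table held a promoter for 8 of the 10 members. The stretches lie at chr8:72318812-72319032 on the plus strand for Klf2, chr4:55532476-55532725 on the minus strand for Klf4, chr13:5861239-5861481 on the plus strand for Klf6 and chr7:63938916-63939165 on the minus strand for Klf13. Capitals mark GC boxes (GGGCGG on either strand) and, in Klf2, the 10-letter MEF2 site, CTAAATTTAG.
Klf2: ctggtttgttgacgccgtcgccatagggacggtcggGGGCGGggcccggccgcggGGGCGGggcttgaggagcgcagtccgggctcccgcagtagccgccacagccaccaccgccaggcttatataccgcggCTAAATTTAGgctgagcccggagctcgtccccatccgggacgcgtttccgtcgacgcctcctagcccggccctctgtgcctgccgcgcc
Klf4: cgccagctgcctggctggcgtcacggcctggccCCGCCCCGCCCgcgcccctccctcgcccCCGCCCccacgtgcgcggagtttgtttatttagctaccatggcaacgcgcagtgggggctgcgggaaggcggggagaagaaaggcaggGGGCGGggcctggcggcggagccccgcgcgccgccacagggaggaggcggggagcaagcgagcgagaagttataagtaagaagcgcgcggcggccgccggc
Klf6: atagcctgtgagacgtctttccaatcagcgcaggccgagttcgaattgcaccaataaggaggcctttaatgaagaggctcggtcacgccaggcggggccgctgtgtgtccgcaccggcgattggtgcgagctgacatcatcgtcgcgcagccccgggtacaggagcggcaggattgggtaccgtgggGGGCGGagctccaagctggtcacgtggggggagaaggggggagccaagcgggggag
Klf13: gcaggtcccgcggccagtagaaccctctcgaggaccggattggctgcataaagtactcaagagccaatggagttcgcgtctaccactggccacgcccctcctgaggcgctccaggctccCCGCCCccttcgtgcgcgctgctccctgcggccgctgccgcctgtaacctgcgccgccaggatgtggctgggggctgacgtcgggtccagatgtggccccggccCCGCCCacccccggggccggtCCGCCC

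Within 250 bases upstream of the RefSeq start, a GC box was found in 7 of the 8 member promoters, where 32.7% of 32851 mouse promoters had a match. G and C made up 59.2% to 78.4% of the member stretches, and the promoters compared were not matched for this. The core KLF site CACCC, searched on both strands, was found in 6 of 8 (52.0% of all promoters), but not in Klf4 or Klf6. A MEF2 site was found in 1 of 8, Klf2, at 118 to 109 bases before the start, and in 2.92% of all promoters. The AP-1 site TGANTCA was found in 1 of 8, Klf9, and in 6.75% of all promoters. The CCAAT box was found in 4 of 8 (33.8% of all promoters), namely Klf6, Klf9, Klf13 and Klf15. The CArG box of SRF (1.47% of all promoters), the cAMP response element TGACGTCA (1.55%) and the TATA box TATAAA (12.4%) were found in none of the 8. Klf13 had 3 GC boxes, Klf2 had 2, Klf4 had 4 and Klf6 had 1. A match describes the letters only.

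Klf5 and Klf3 were the most abundant members per length in Matrigel, and both were called in the degradable gel and not in the non-degradable gel, with no call between the PEG gels. Klf5 had 127.6, 104.2 and 93.1 CPM in Matrigel, 148.3, 121.1 and 206.4 CPM in the non-degradable gel and 178.8, 145.8 and 198.6 CPM in the degradable gel. Its degradable gel libraries lay above Matrigel, whereas library 2 of the non-degradable gel fell within the Matrigel range. In the degradable gel it rose by 0.69 ± 0.185 (log2, edgeR adjusted p = 0.0333). That call was lost without Matrigel library 2 (0.0915), Matrigel library 3 (0.115) or degradable gel library 3 (0.113), within a range of 5.01e-04 to 0.115 over 15 alternatives. In the non-degradable gel the log2 fold change was 0.55 ± 0.184 (adjusted p = 0.0619, 0.0361 with a replicate block, 0.0189 with DESeq2, 0.00484 with no filter, 0.0217 without library 2 of that gel, range 0.00484 to 0.251).

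Klf3, a repressor that works through CtBP, had 326.6, 294.7 and 276.8 CPM in Matrigel and 298.3, 289.7 and 339.9 CPM in the non-degradable gel. In the degradable gel it had 419.5, 324.03 and 443.3 CPM. Library 2 of the degradable gel was within the Matrigel range, so those groups overlapped. The log2 fold change was 0.40 ± 0.116 in the degradable gel (edgeR adjusted p = 0.0445) and 0.05 ± 0.116 in the non-degradable gel (adjusted p = 0.819). The former call was lost in 9 of 15 alternatives, with an adjusted p of up to 0.155 from a lowest value of 0.00734. Those 9 were the fits without any 1 Matrigel library (0.0538 to 0.144), without degradable gel library 1 (0.0784) or 3 (0.155), without non-degradable gel library 1 (0.0653) or 2 (0.0549), of the compared matrices only (0.0611) and without the libraries numbered 3 of both PEG gels (0.143). The exons of Klf3 share 404 bases with Gm20033 on the opposite strand, which had a mean of 45.4 counts, while no Klf3 library was under 11290 counts. With no strand setting given for the counting, reads from opposite strands cannot be told apart.

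Klf7, Klf13 and Klf15 did not pass the test in any of the 3 comparisons. Klf7, known from neurite outgrowth, had 20.4, 20.1 and 20.3 CPM in Matrigel, 26.7, 26.2 and 28.3 CPM in the non-degradable gel and 32.9, 19.1 and 29.8 CPM in the degradable gel. The non-degradable gel lay wholly above Matrigel, whereas library 2 of the degradable gel lay below it. The log2 fold changes were 0.42 ± 0.157 (edgeR adjusted p = 0.0917) and 0.43 ± 0.157 (adjusted p = 0.104). Without that library 2, Klf7 was called in both gels (0.00409 and 0.00174, with ranges of 0.00409 to 0.25 and 0.00174 to 0.285). It was also called in both with no filter (0.0365 and 0.0381), and in the non-degradable gel with the compared matrices only (0.00464). Of its 8131 exon bases, 3196 are shared with Gm26649 on the opposite strand, which had a mean of 0.222 counts. With no strand setting given, it cannot be told whether reads of Klf7 were left uncounted there.

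Klf13, a Sin3-recruiting factor known from T cells and heart, had the smallest dispersion of the 10 members. Its mean level was 83.2 ± 3.59 CPM in Matrigel, 81.0 ± 4.20 CPM in the non-degradable gel and 80.5 ± 3.52 CPM in the degradable gel (SD, n = 3 each). All groups overlapped, and the 95% intervals of its log2 fold change were -0.19 to 0.11 and -0.19 to 0.10 against Matrigel. Klf15, a regulator of amino acid and glucose metabolism in liver and muscle, was scarce, with 45 to 167 counts per library. It had 2.77, 2.63 and 3.68 CPM in Matrigel, 1.64, 2.59 and 2.32 CPM in the non-degradable gel and 1.18, 2.45 and 2.27 CPM in the degradable gel. All PEG libraries were below all Matrigel libraries. Its log2 fold changes were -0.47 ± 0.274 (edgeR adjusted p = 0.264) and -0.62 ± 0.277 (adjusted p = 0.177).

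Between the PEG gels no member was called by edgeR, where 1.28% of all tested genes were (0.814% higher and 0.464% lower in the non-degradable gel), and 2 of 10 members, Klf6 and Klf3, had an unadjusted p under 0.05, as did 2203 of the 14870 tested genes. That split of 121 genes higher to 69 lower turned to 51 and 92 without library 3 of the non-degradable gel, to 4 and 15 without library 2 of the degradable gel and to 35 and 53 without the libraries numbered 3 of both gels. DESeq2 called 1, Klf6. Klf6 was lower in the non-degradable than in the degradable gel by a log2 fold change of -1.41 ± 0.320 (adjusted p = 0.0649), with no overlap between the gels. It was the 1 member of 10 whose gels did not overlap, where 9.02% of all genes lay wholly lower and 19.0% wholly apart in either direction. It was called with no filter (3.43e-05), with the replicate block (0.0244), with DESeq2 (0.0365), without library 3 of the non-degradable gel (0.00192) and without the libraries numbered 3 of both gels (0.00547), over a range of 3.43e-05 to 0.227. Klf2 had -0.91 ± 0.453 (adjusted p = 0.382), and -1.79 without library 3 of the non-degradable gel (0.0304, range 0.0304 to 0.584). Klf3 had -0.35 ± 0.116 (adjusted p = 0.197, range 0.0481 to 0.389). For the other 7 members the estimates ran from -0.35 for Klf4 to 0.15 for Klf15. The 95% interval was -1.03 to 0.32 for Klf4, -0.77 to 0.27 for Klf10 and -0.30 to 0.48 for Klf9, and each of these intervals includes 0.

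The order of the members, compared per kilobase of merged exon (RPKM), differed between matrices. In Matrigel, Klf3 led at 26.6 ± 2.25 RPKM, followed by Klf5 at 20.8 ± 3.39 and Klf13 at 11.04 ± 0.476, with Klf2 last at 0.664 ± 0.0659 (SD, n = 3). Klf13 and Klf6, Klf4 and Klf10, and Klf9 and Klf7 were neighbours whose libraries overlapped. In the non-degradable gel, the first 5 places went to Klf5, Klf6, Klf3, Klf4 and Klf10, from 30.5 ± 8.38 to 20.9 ± 7.15 RPKM, and each overlapped with the next. In the degradable gel, Klf6 stood first at 73.9 ± 16.4 RPKM, with every library above every library of Klf3, the next at 35.2 ± 5.61. Klf3, Klf5, Klf4 and Klf10 overlapped in turn there, and Klf15 was last at 0.705 ± 0.246. Klf6 made up 10.9% of the summed RPKM of the 10 members in Matrigel, 18.1% in the non-degradable gel and 32.9% in the degradable gel. The summed RPKM ran from 83.8 to 91.6 in Matrigel, from 115.3 to 209.7 in the non-degradable gel and from 183.5 to 267.03 in the degradable gel. Merged exons count every annotated exon, so a member with long, little used exons reads low.

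**Figure D3:**
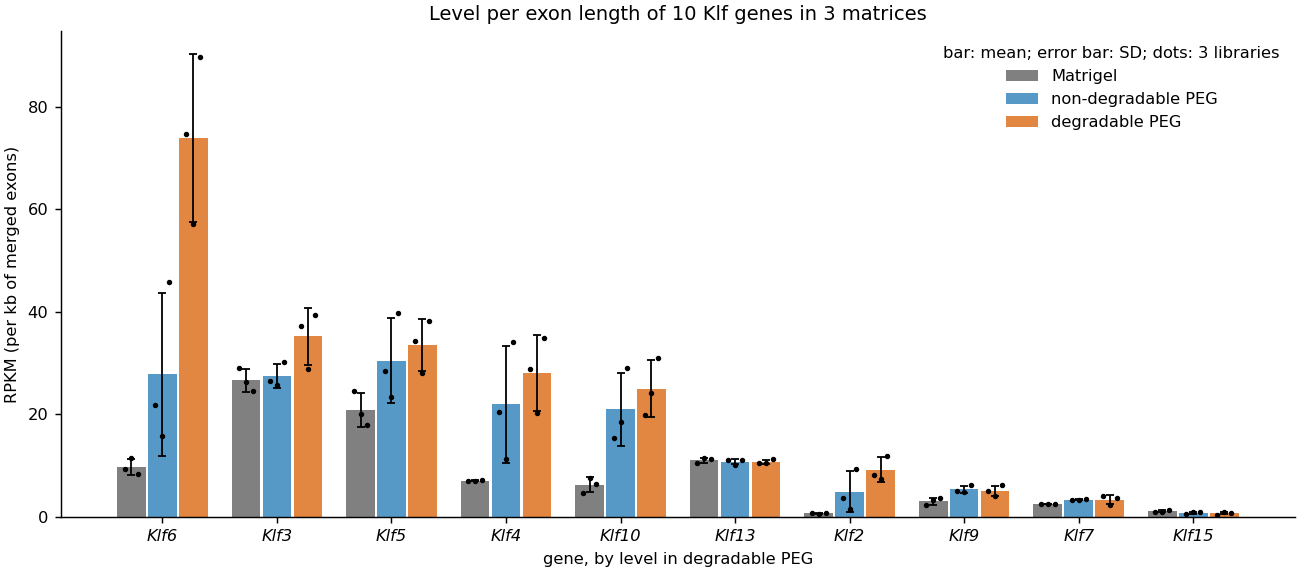
Level of each Klf gene per kilobase of merged exon (RPKM), with bars for the mean of 3 libraries, error bars for the SD and dots for the libraries. Klf6 is the highest bar in the degradable gel, at 73.9 RPKM, and the fourth highest in Matrigel, at 9.72 RPKM.

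Klf4 and Klf5 are known for opposite positions on the crypt to villus axis, so their ratio was taken within each library, where no scaling between libraries enters. The log2 ratio of Klf4 to Klf5 CPM was -2.58, -2.29 and -2.09 in Matrigel, -1.25, -1.81 and -0.99 in the non-degradable gel and -1.02, -1.24 and -0.90 in the degradable gel. All 6 PEG libraries were above all 3 Matrigel libraries. The mean difference from Matrigel was 0.97 and 1.27. Each had an exact permutation p of 0.1 (2-sided, 0.15 adjusted over 3 comparisons), the smallest that 3 against 3 allows. Between the PEG gels the difference was -0.30 (exact permutation p = 0.4). Beside the higher Klf4, 4 of 9 goblet cell markers were called lower in the non-degradable gel and 5 of 9 in the degradable gel. None was called higher, and 7.13% and 4.79% of all tested genes were called lower. Most of the summed level of these markers came from Fcgbp and Tff3 (means of 539 and 170 CPM in Matrigel), while Muc2 had 3.73 CPM there. Their summed level was 576 to 1055 CPM in Matrigel, 191.7 to 259.4 CPM in the non-degradable gel and 137.04 to 200.7 CPM in the degradable gel. Their part in the level of Klf4 was not tested.

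The PEG libraries differed from each other along the same line for most members. In library 3 of each PEG gel, all 10 members were above the mean log2 CPM of their own gel, where 51.5% and 52.3% of all tested genes were. In library 2 of each gel, 9 of 10 were below it, the exception being Klf15. Klf2 deviated by -1.27 and 1.29 on the log2 scale in libraries 2 and 3 of the non-degradable gel, Klf6 by -0.67 and 0.87 and Klf4 by -0.81 and 0.77. The deviations of Klf13 stayed between -0.09 and 0.07 in all 9 libraries. Early response genes outside the family were also highest in library 3 and lowest in library 2 of the non-degradable gel. Of 21 such genes, 21 were above the gel's mean in library 3 and none in library 2, and their mean log2 CPM was 6.23, 5.82 and 7.16 in libraries 1, 2 and 3. In the degradable gel, 20 of 21 were above the mean in library 3 and 9 of 21 in library 2, with means of 7.06, 7.14 and 7.38. In Matrigel the means were 3.54, 4.04 and 3.85. The part of these genes' shared movement in the members' results was not tested.

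**Figure D4:**
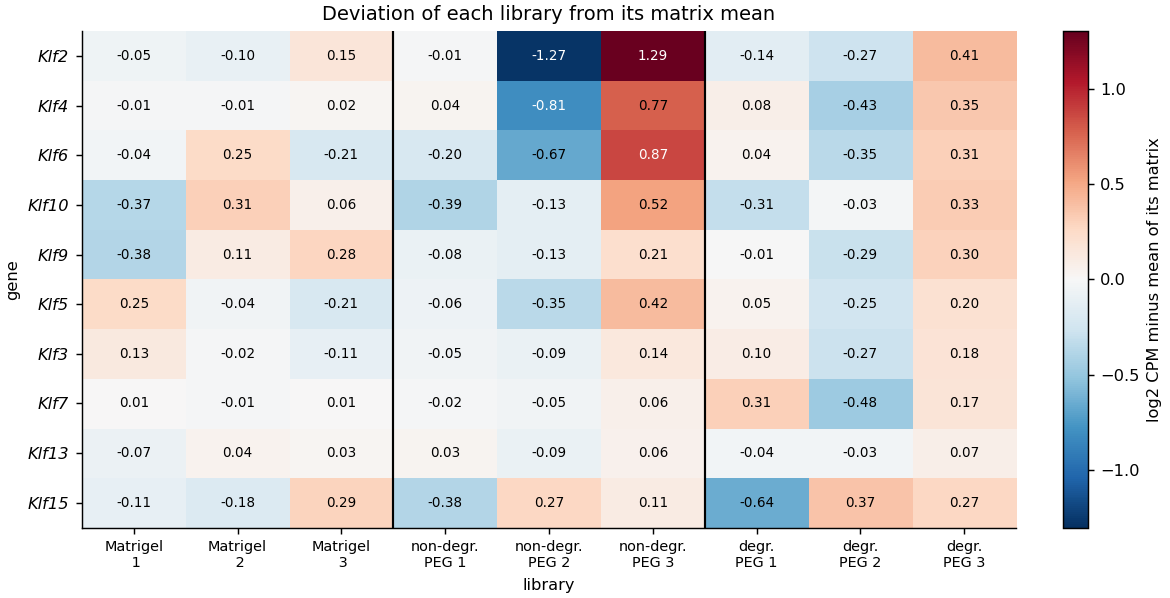
Log2 CPM of each Klf gene (rows) in each library (columns) minus the mean of the 3 libraries of its matrix, printed in each cell and coloured from blue (below) to red (above). Library 3 of both PEG gels is above the mean for all 10 genes, and the widest spread is that of Klf2 in the non-degradable gel, from -1.27 to 1.29.

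Genes with the pattern most like a member were found as those with the smallest root mean square difference in centred log2 CPM over the 9 libraries, among 10315 named genes of at least 5 CPM. For Klf2 they were the nuclear receptor gene Nr4a1 (0.295), the ERK phosphatase gene Dusp5 (0.313) and Tcim (0.322), where the median gene differed by 1.68. For Klf4 they were the kinase gene Plk3 (0.276), the small GTPase gene Rhob (0.276) and the AP-1 gene Jund (0.280), beside a median of 0.954. For Klf6 they were the pseudokinase gene Trib1 (0.235), the endothelin gene Edn1 (0.254) and the arrestin-like gene Arrdc3 (0.265), beside 1.28. For Klf10 they were Cd274, which encodes PD-L1 (0.214), Plk3 (0.226) and the cytokine gene Lif (0.237), beside 0.961. For Klf9 they were Pstpip2 (0.103), Samd9l (0.117) and Tmc7 (0.136), beside 0.460. Within the family, the smallest difference was that of Klf3 and Klf7 at 0.209 and the largest that of Klf2 and Klf15 at 1.95. The measure is small for any 2 genes that move little, so the smallest difference need not mean the most alike pattern. Klf3 also differed by only 0.233 from Klf13, whose level did not differ detectably. Klf4 and Klf10 were at 0.387, and they moved by 0.934 and 0.940 around their own means. Plk3 is on the lists of both Klf4 and Klf10, and none of the genes named for Klf9 is on another member's list.

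Of 16 other KLF and SP genes, 13 were tested. In the non-degradable gel 2 were higher and none lower, and in the degradable gel 4 were higher and none lower, beside 9.71% and 7.42% of all tested genes called higher. Their median log2 fold changes were 0.14 and 0.16. Klf11, the closest relative of Klf10, rose by 0.67 ± 0.201 (edgeR adjusted p = 0.042) and 0.73 ± 0.201 (0.0376). Sp6, an epithelial factor of teeth and skin, rose from 2.57 to 4.65 and 4.70 CPM (log2 fold changes 0.85 ± 0.210, adjusted p = 0.0194, and 0.86 ± 0.2105, adjusted p = 0.0217). Sp5, a Wnt target, and Sp9 were the others, called in the degradable gel and not in the other gel (0.31, adjusted p = 0.0368, and 0.43, adjusted p = 0.0485). The general GC box factor Sp1 stood at 191, 189.6 and 171 CPM in Matrigel, non-degradable and degradable gel and was not called.

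Among 14 CtBP, Sin3, acetyltransferase and deacetylase genes, 2 were lower in the non-degradable gel (Hdac2, log2 fold change -0.27, edgeR adjusted p = 0.0152, and Ctbp1, -0.37, adjusted p = 0.0465) and none was called in the degradable gel. Among 11 genes of protein turnover, 4 were lower in the non-degradable gel and 1 in the degradable gel, and no gene of either list was higher. Of all tested genes, 7.13% and 4.79% were called lower in these comparisons. The others lower in the non-degradable gel were Siah1a (-0.32, adjusted p = 0.0143), Usp10 (-0.23, adjusted p = 0.0252) and Bap1 (-0.23, adjusted p = 0.0197). Wwp1, a ubiquitin ligase that targets Klf2 and Klf5, was lower in both gels (-0.37, adjusted p = 0.0415, and -0.46, adjusted p = 0.0192). The list for the MEK5-ERK5-MEF2 module, which induces Klf2 and Klf4 in endothelium, had 9 tested genes. Besides kinase and MEF2 genes, it held the deacetylase genes Hdac4, Hdac5 and Hdac7. Of the tested genes, Hdac7 was lower in the non-degradable gel (-0.59, adjusted p = 0.0215). No kinase or MEF2 gene of the list was called in either gel, nor were Hdac4 and Hdac5. The median log2 fold changes of these 3 lists lay between -0.15 and -0.033 in the 2 gels.

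For the counts that follow, 9.71% and 7.42% of all tested genes were called higher in the non-degradable and degradable gel, and 7.13% and 4.79% lower. Of 11 tested genes with reported regulation by Klf4 or Klf5 in gut epithelium, 6 were higher in each PEG gel, with 3 lower in the non-degradable gel and none in the degradable gel. The list does not separate reported activation from reported repression, so these counts have no expected direction. The growth response factor Egr1, which is also on the early response list, rose by 3.92 ± 0.406 and 4.35 ± 0.414 (edgeR adjusted p = 1.78e-04 and 1.40e-04). The epithelial factor Elf3 rose by 1.10 ± 0.137 and 1.05 ± 0.137 (edgeR adjusted p = 4.51e-04 and 6.86e-04). The keratin gene Krt19 rose by 0.68 and 0.62 (adjusted p = 0.00137 and 0.00265). The cell cycle inhibitor Cdkn1a rose by 0.81 and 0.69 (adjusted p = 0.00589 and 0.0158). The alkaline phosphatase gene Alpi was higher in the non-degradable gel (1.37, adjusted p = 0.023) and had -0.87 in the degradable gel (adjusted p = 0.156), and the gels differed (2.24, adjusted p = 0.0202). Ccnb1, Cdk1 and Pdgfa were the 3 that fell in the non-degradable gel, by 0.36, 0.40 and 0.81. The cyclin gene Ccnd1 had means of 267 CPM in Matrigel, 342 CPM in the non-degradable and 336 CPM in the degradable gel. Those of Odc1 were 179, 203 and 234 CPM. Of 10 genes tied to Klf2 in endothelium and T cells, 4 had too few counts to be tested. Of the other 6, 4 were higher in each PEG gel, and Il6ra was lower in the non-degradable gel (-1.11, adjusted p = 0.0213). Nos3, the endothelial nitric oxide synthase gene that Klf2 is known to induce, rose by 1.34 and 1.40 (adjusted p = 0.00812 and 0.00756). Nos3 and Il6ra were both near the floor. Nos3 had means of 0.391 CPM in Matrigel, 0.996 CPM in the non-degradable and 1.04 CPM in the degradable gel. Those of Il6ra were 1.10, 0.510 and 0.623 CPM. Edn1, the endothelin gene that Klf2 is reported to repress in endothelium, rose by 1.61 ± 0.264 and 3.17 ± 0.273 (adjusted p = 0.00231 and 8.93e-05) and was lower in the non-degradable than in the degradable gel (-1.57, adjusted p = 0.0188).

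Companion lists of single members moved in mixed ways. Beside their counts, 9.71% and 7.42% of all tested genes were called higher in the non-degradable and degradable gel, and 7.13% and 4.79% lower. The glucocorticoid list held genes induced by glucocorticoids, as Klf9 and Klf15 are known to be, and the receptor gene Nr3c1. Of its 8 tested genes, 6 were higher in the non-degradable gel and 5 in the degradable gel. The EGF receptor inhibitor gene Errfi1 rose by 0.91 and 2.15 (edgeR adjusted p = 0.0359 and 5.45e-04) and differed between the PEG gels (-1.24, adjusted p = 0.0474). Tsc22d3, the leucine zipper gene GILZ, rose by 1.17 ± 0.237 and 1.41 ± 0.238 (edgeR adjusted p = 0.00733 and 0.00298). The receptor gene Nr3c1 was the 1 that fell, with -0.35 and -0.52 (adjusted p = 0.0334 and 0.0064). Among 18 clock genes, 6 were higher and 1 lower in each gel. The repressor gene Bhlhe40 rose from 43.7 to 176 and 171 CPM (log2 fold changes 2.01 ± 0.123 and 1.97 ± 0.123, adjusted p = 6.98e-06 and 1.58e-05). Nr1d1, which encodes REV-ERB alpha, rose by 0.50 and 0.97 (adjusted p = 0.00692 and 2.22e-04), and Ciart by 1.32 and 1.17 (adjusted p = 6.45e-04 and 0.00154). The list set beside Klf10 mixed TGF-beta early genes with genes of the pathway itself, such as Tgfb1, Tgfbr1, Tgfbr2 and Smad3. Its counts are therefore no measure of a TGF-beta response. Of its 12 genes, 3 were higher in the non-degradable gel, and 5 were higher and 1 lower in the degradable gel. The inhibitory Smad gene Smad7 rose in the degradable gel by 1.24 ± 0.208 (adjusted p = 0.00288). The corepressor gene Tgif1 rose in the degradable gel by 0.66 (adjusted p = 0.00115), had 0.19 in the other gel (0.175), and differed between the gels (-0.47, adjusted p = 0.0391). By comparison, 17 and 20 of the 21 other early response genes were higher, with median log2 fold changes of 2.39 and 2.81. Among them Fos had log2 fold changes of 7.06 and 7.17, the mRNA decay factor gene Zfp36 of 3.43 and 3.58 and Ier2 of 2.498 and 2.81. Dusp1, a phosphatase of MAP kinases, is on both that list and the glucocorticoid list, and had 2.39 and 2.76.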

How the data were processed

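Each of the 9 libraries had its own table of gene counts, deposited by the authors as raw reads. The submitters' processing notes name cutadapt 1.3, STAR 2.4.2a, HTSeq 0.6.1 and the build GRCm38. Per the labels' protocols, the kits were RNeasy Micro for RNA and TruSeq Stranded for mRNA libraries. The sources used here give neither the annotation nor the strand setting of the counting.

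From each table, 5 tally rows were removed (reads without a feature were 7.29% to 11.2% and ambiguous reads 1.09% to 1.16% of assigned, featureless and ambiguous reads). Symbols, coordinates and merged exon lengths came from GENCODE M21, which matched 46005 of 46517 genes. The edgeR function filterByExpr kept 14870 genes, libraries were scaled by TMM, and all 9 libraries entered 1 quasi-likelihood fit with 1 mean per matrix (common biological variation 11.03%). Standard errors were derived from the fold change and its F statistic. CPM uses TMM-scaled totals, and log2 CPM a prior count of 2. Intervals of 95% are for single genes, unadjusted. On simulated counts for the non-degradable gel against Matrigel (14870 genes), 93 of 100 genes changed 2-fold and 100 of 100 changed 4-fold were called, with 10 false calls. The simulated spread followed the trend over all genes. Klf2, Klf4 and Klf6 had a biological variation of 39.0%, 26.1% and 26.8%, so these rates cannot be read as theirs.

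Replicate numbers are shared between matrices, with no label that they mark a culture or day. Deviations of equally numbered libraries correlated at 0.331, 0.176 and 0.186 between Matrigel and non-degradable gel, so the numbers were taken as pairs there, and the blocked count stands beside the main, unblocked one. For the degradable gel the correlations were 0.258, 0.0712 and 0.226 with Matrigel, and 0.288, 0.0197 and 0.511 with the non-degradable gel. The value for number 2 was under 0.1 in both, so the numbers were not taken as pairs there.

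The members, gene lists and rule for named genes were chosen with earlier results of these data known. Named were all 10 members, up to 3 genes per list with the smallest p over the 3 matrices among those called, and the 3 most alike genes per member called in that test (5 members, 16.3% of all genes). Some genes that this rule names are not reported here. Other genes were named to say what a small count held or as examples, after their values were seen. Further lists marked crypt base stem cells, enterocytes, proliferation, mesenchyme, glia and neurons, and adipocytes and muscle. Alternatives were RLE scaling, no filter, DESeq2, a replicate block, a fit of the compared matrices only and leaving out each library. Tools were R 4.3.3, edgeR 4.0.16, DESeq2 1.42.0 and limma 3.58.1.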

Additional observations from a re-analysis of the deposited data

How the results depend on the processing

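Of the recomputed fold changes of members (15 alternatives each), 399 kept their direction and side of the threshold, 17 lost a call, 16 gained one and 18 changed sign, all of the latter in fold changes with no call. Klf2, Klf4, Klf6 and Klf10 were called against Matrigel in 15 of 15 alternatives in both gels, and the direction of the Klf4 to Klf5 ratio held in every alternative run. With each library left out in turn, genes called ranged from 1189 to 3247 (non-degradable gel against Matrigel; 2504 with all libraries), 1086 to 2395 (degradable gel against Matrigel; 1815), 19 to 242 (between the PEG gels; 190) and 1507 to 3109 (any difference; 2424). Members called ranged from 4 to 6, 4 to 8, 0 to 2 and 4 to 8. The 4 in the degradable gel came without Matrigel library 2 or degradable library 3, and the 8 over any difference without degradable library 2. The lowest gene counts came without non-degradable library 3, Matrigel library 1, degradable library 2 and Matrigel library 1. Without the libraries numbered 3 of both PEG gels, an alternative chosen after seeing the data, 1161, 1185, 88 and 1375 genes were called, and 1 member between the PEG gels. With no filter, 521 genes and 2 members were called between the PEG gels, and 8 members over any difference. DESeq2 called 509 genes and 1 member between the PEG gels. The causes were not tested.

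In the fit with a replicate block, 3877, 2783, 542 and 3894 genes were called in those 4 tests. The block gained Klf5 in the non-degradable gel against Matrigel and Klf6 between the PEG gels (1 member), and in those comparisons it changed no other member's call. The latter comparison and the degradable gel against Matrigel share only a number. Under the block Klf7 between the PEG gels changed sign to 0.0097. Each library's best match in another matrix carried its own number in 17 of 18 cases, which is a hint from the data only.

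Signs also changed in these log2 fold changes with libraries left out in turn: Klf3 (-0.027 to 0.11) and Klf13 (-0.078 to 0.0031) in the non-degradable gel against Matrigel, and between the PEG gels Klf5 (-0.37 to 0.026), Klf7 (-0.22 to 0.14), Klf9 (-0.047 to 0.25), Klf13 (-0.019 to 0.051) and Klf15 (-0.12 to 0.33). Without the libraries numbered 3 of both PEG gels, Klf3 had -0.029 in the non-degradable gel against Matrigel and Klf7 0.022 between the gels, and with the compared matrices only Klf13 had -0.00070. Depth limits the members with few reads, Klf2 in Matrigel (46 to 62 a library) and Klf15 (45 to 167).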

Other observations

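Lists that were not set beside a member gave the following values. Against Matrigel, 9.71% and 7.42% of all tested genes were called higher in the non-degradable and degradable gel, and 7.13% and 4.79% lower. Between the PEG gels, 0.814% were called higher in the non-degradable gel. Of 9 proliferation markers, 7 were lower in the non-degradable gel and none was called in the degradable gel by edgeR, with summed levels of 2834 to 3187 CPM in Matrigel, 2043 to 2515 CPM in the non-degradable and 2348 to 2818 CPM in the degradable gel. Of 9 crypt base stem cell markers, 1 was higher and 4 lower in the non-degradable gel, and 2 were higher and 1 lower in the degradable gel. Of 12 enterocyte markers, 4 were higher and 2 lower in the non-degradable gel, 1 was higher and 4 lower in the degradable gel, and 5 were higher in the non-degradable than in the degradable gel. Of 12 mesenchymal markers, 7 stayed under 1 CPM in every library and Col3a1, Dcn, Lum and Thy1 had no count. The summed level was 161 to 326 CPM in Matrigel, 143 to 202 CPM in the non-degradable and 177 to 235 CPM in the degradable gel. It was led by Vim (means of 209, 89.6 and 125 CPM in that order) and Fn1 (45.2, 68.7 and 74.2 CPM). Of 8 glial and neuronal markers 5, and of 9 adipocyte and muscle markers 8, stayed under 1 CPM.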
